A study of Mus musculus with 5 samples.

Results

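The 8 receptors described here, Cxcr2, Cxcr3, Cxcr4, Cxcr5, Ccr1, Ccr2, Ccr7 and Cx3cr1, are chemokine receptors that circulating leukocytes use to find their way between blood and tissue. They were chosen by name, and each was followed through every array probe set (a group of short probes against 1 transcript) that the platform annotation pairs with that symbol alone. That gave 13 probe sets of 45037 that were not array controls, and 8 of 18193 genes. Ccr2 has 4 of these probe sets, Ccr1 and Cx3cr1 have 2 each, and the other 5 receptors have 1 each.

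The samples were whole blood of adult female first-generation (F1) mice of 2 crosses, each measured on its own Affymetrix array. DBAxFVB F1 mice, from DBA/2J and FVB/NJ parents, gave 3 arrays, and AKRxFVB F1 mice, from AKR/J and FVB/NJ parents, gave 2. All animals thus carried 1 FVB/NJ parental genome, and all were bled by cardiac puncture after being killed under Avertin anaesthesia. The design sets the basal blood expression of these genotypes against each other. Nothing in the labels states that the arrays of a cross stand for separate animals, so a p-value here measures only spread between arrays, part or all of which may be technical. With 5 arrays every estimate is imprecise.

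Chemokine receptors are G protein-coupled receptors that turn a gradient of a secreted chemokine into directed movement. Cxcr2 brings neutrophils out of the marrow and into inflamed tissue, Ccr2 does the same for classical monocytes, and Cx3cr1 marks patrolling (nonclassical) monocytes. Cxcr5 and Ccr7 guide B and T cells into the compartments of lymphoid organs, Cxcr3 guides activated T cells and natural killer (NK) cells to inflamed sites, and Cxcr4 holds many leukocyte types and their precursors in the marrow. Whole blood is a mixture, so fewer cells of a type and less RNA per cell cannot be told apart in any value below.

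Values are log2 expression as deposited, and differences are DBAxFVB F1 minus AKRxFVB F1 on that scale. The array medians lay between 2.49 and 2.54. The filter kept probe sets with a mean over the 5 arrays of at least 2.51. It left 9 of the 13 in the test, with at least 1 for every receptor, and 4 (3 of Ccr2, 1 of Ccr1) are described without a test. Markers of the most abundant blood elements read far above the medians on every array, with the erythroid enzyme Alas2 at 13.5 to 13.6 in both crosses and the platelet chemokine Pf4 at 8.53 to 10.7 in DBAxFVB F1 and 9.58 to 11.3 in AKRxFVB F1. Some other blood cell markers read near or below the medians, among them the haemoglobin probe set of Hba-a1, at 2.60 to 2.68 in DBAxFVB F1 and 2.34 to 2.56 in AKRxFVB F1. DBAxFVB F1 array 3 stood apart from the others. The 18 spiked-in hybridisation controls had a median of 7.99 on it and of 10.01 to 10.12 elsewhere. Its 3-prime minus 5-prime difference for Gapdh, a sign of RNA quality, was 1.33 against 0.58 to 1.04. For Actb that difference set it less apart, at 1.32 against 0.82 and 0.68 on DBAxFVB F1 arrays 1 and 2 and 1.22 and 1.03 on the AKRxFVB F1 arrays.

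No receptor probe set passed the test between the crosses. With limma's moderated test, 0 of the 9 tested probe sets had a Benjamini-Hochberg adjusted p below 0.05, where 0.0% of 22519 probe sets did. At an unadjusted p below 0.05 there was 1, that of Cxcr4, where 10.4% of all probe sets were. It lay on the lower side (6.79% of all probe sets), with 0 on the higher side (3.59%), and 0 of the 9 were lower by a fold of 2 or more (2.35%). Of the 9, 6 were lower in DBAxFVB F1 with a median difference of -0.21, while 43.2% of all tested probe sets were lower and their median difference was 0.04. The median moved to -0.07 without AKRxFVB F1 array 1 and to -0.002 without AKRxFVB F1 array 2. Over all 13 probe sets, 10 were lower and the median was -0.23. The groups did not overlap for 3 of the 9, those of Cxcr4 and Cxcr3 on the lower side and 1 of Cx3cr1 on the higher side, and 28.9% of all tested probe sets had groups that did not overlap (12.6% lower, 16.4% higher).

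**Figure D1:**
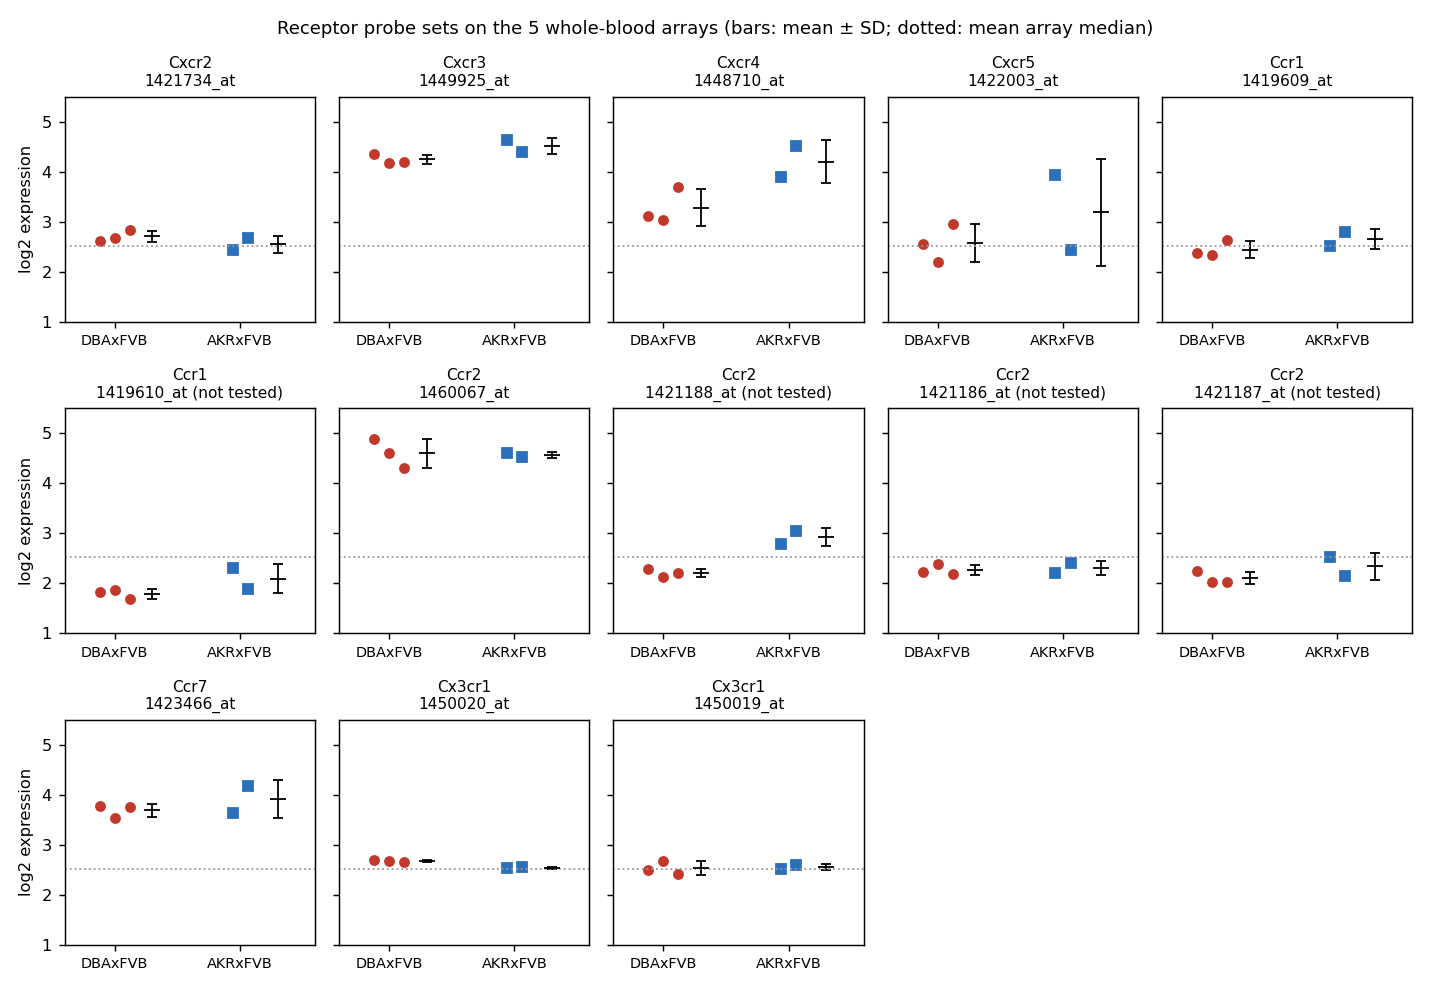
Log2 expression (vertical axis) of the 13 receptor probe sets on each array, with DBAxFVB F1 (3 red circles) left of AKRxFVB F1 (2 blue squares), mean ± SD as black bars, and the mean of the array medians as a dotted line. Cxcr4 separates the crosses, Cxcr5 is high on a single AKRxFVB F1 array, and Ccr2 1421188_at separates the crosses while the other Ccr2 probe sets overlap.

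The upstream sequence is shown for the 3 receptors with a tested probe set whose groups did not overlap, for Cx3cr1 only 1 of its 2. These were 3 of the 9 tested probe sets, near the share of 28.9% over all tested probe sets. Each window covers 250 bases before and 50 after the annotated start of the gene (RefSeq, GRCm38.p6), is read 5-prime to 3-prime on the gene's strand, and is at chr1:128592250-128592549 (minus strand) for Cxcr4, chrX:101734098-101734397 (minus strand) for Cxcr3 and chr9:120068247-120068546 (minus strand) for Cx3cr1. Capitals mark matches, on either strand, to 5 motifs. These are GGGCGG for the GC box, CCAAT for the CCAAT box, TATAAA for the TATA box, TGTGGT for RUNX factors and AGGAAG for ETS factors.
Cxcr4: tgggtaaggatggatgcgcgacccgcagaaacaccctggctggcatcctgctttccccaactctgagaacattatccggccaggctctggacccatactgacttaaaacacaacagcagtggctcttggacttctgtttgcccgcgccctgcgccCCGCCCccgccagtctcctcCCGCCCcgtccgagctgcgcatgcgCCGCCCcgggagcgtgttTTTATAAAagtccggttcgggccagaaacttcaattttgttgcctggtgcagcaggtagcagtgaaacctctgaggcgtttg
Cxcr3: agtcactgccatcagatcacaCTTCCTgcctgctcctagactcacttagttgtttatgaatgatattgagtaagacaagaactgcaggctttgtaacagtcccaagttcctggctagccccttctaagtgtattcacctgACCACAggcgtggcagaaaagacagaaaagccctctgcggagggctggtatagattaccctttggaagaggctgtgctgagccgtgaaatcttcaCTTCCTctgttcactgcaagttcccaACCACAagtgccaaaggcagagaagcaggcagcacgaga
Cx3cr1: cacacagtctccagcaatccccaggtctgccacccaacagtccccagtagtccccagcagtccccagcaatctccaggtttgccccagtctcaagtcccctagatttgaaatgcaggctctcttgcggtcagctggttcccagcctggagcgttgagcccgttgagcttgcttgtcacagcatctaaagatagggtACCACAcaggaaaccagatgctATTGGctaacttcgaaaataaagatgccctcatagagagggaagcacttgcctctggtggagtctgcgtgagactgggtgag

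The window of Cxcr4 holds 20 CpG dinucleotides and 59.3% G and C, that of Cxcr3 4 CpG and 49.3%, and that of Cx3cr1 5 CpG and 54.3%, with medians of 7 CpG and 52.7% over 32851 such windows. Cxcr4 has 3 GC boxes, a motif found in 35.7% of windows, and an overlapping pair of TATA boxes (13.6%), 1 on each strand, starting at -32 and -30 from the start of the gene. Cxcr3 has 2 RUNX motifs (16.8% of windows) and 2 ETS motifs (35.4%), while Cx3cr1 has 1 RUNX motif and 1 CCAAT box (37.4%). These matches describe letters in a reference strain, C57BL/6J, and say nothing of factor binding in these mice.

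Cxcr4, the receptor for Cxcl12, showed the largest difference of any tested receptor. Its probe set (1448710_at) read 3.12, 3.03 and 3.70 in DBAxFVB F1 blood, against 3.90 and 4.51 in AKRxFVB F1 blood. Every DBAxFVB F1 array lay below both AKRxFVB F1 arrays, with DBAxFVB F1 array 3 the nearest. The means were 3.28 ± 0.36 (SD, n = 3) in DBAxFVB F1 and 4.20 ± 0.43 (SD, n = 2) in AKRxFVB F1, which is 1.89-fold lower in DBAxFVB F1. The difference was -0.92 ± 0.27 (SE), with a 95% interval of -1.56 to -0.28 and an unadjusted p of 0.0105. Adjusted over all probe sets, the limma p was 0.312, above the threshold. A difference at least as far below 0 was seen in 3.03% of tested probe sets. It was -1.13 without DBAxFVB F1 array 3 and stayed below 0 whichever array was left out, from -1.22 without AKRxFVB F1 array 1 to -0.62 without AKRxFVB F1 array 2. The adjusted p was between 0.105 and 0.784 over the alternatives run.

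Cxcr5, the B cell receptor for the follicle chemokine Cxcl13, varied more within a cross than any other receptor. Its probe set (1422003_at) read 2.56, 2.19 and 2.95 in DBAxFVB F1, against 3.94 and 2.43 in AKRxFVB F1. AKRxFVB F1 array 1 stood well above all others, and AKRxFVB F1 array 2 lay within the DBAxFVB F1 range. The difference was -0.62 ± 0.42 (SE), with a 95% interval of -1.58 to 0.35 and a limma adjusted p of 0.648. It turned to 0.14 without AKRxFVB F1 array 1 and was -1.37 without AKRxFVB F1 array 2, so its direction rests on 1 array.

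Ccr7, which responds to the lymph node chemokines Ccl19 and Ccl21, read 3.77, 3.55 and 3.75 in DBAxFVB F1, against 3.64 and 4.18 in AKRxFVB F1 (1423466_at). All DBAxFVB F1 arrays lay near AKRxFVB F1 array 1, and AKRxFVB F1 array 2 was the highest. The difference was -0.23 ± 0.22 (SE), with a 95% interval of -0.73 to 0.28 and a limma adjusted p of 0.737. Leaving out AKRxFVB F1 array 2 gave 0.04, and leaving out AKRxFVB F1 array 1 gave -0.50.

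Cxcr3, the receptor for the interferon-induced chemokines Cxcl9, Cxcl10 and Cxcl11, read 4.36, 4.17 and 4.20 in DBAxFVB F1, against 4.63 and 4.40 in AKRxFVB F1 (1449925_at). The groups were adjacent but did not overlap, with DBAxFVB F1 array 1 and AKRxFVB F1 array 2 almost equal. Its difference was -0.27 ± 0.21 (SE), which is 1.21-fold lower in DBAxFVB F1, with a 95% interval of -0.75 to 0.20 and a limma adjusted p of 0.675. With 1 array left out it ranged from -0.39 (without AKRxFVB F1 array 2) to -0.16 (without AKRxFVB F1 array 1).

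The inflammatory receptors of myeloid cells follow. Cxcr2, the neutrophil receptor for Cxcl1, Cxcl2 and related chemokines, read 2.62, 2.67 and 2.83 in DBAxFVB F1, against 2.43 and 2.67 in AKRxFVB F1 (1421734_at). The groups overlapped, all values lay within 0.40 of each other, and the difference of 0.16 ± 0.15 (SE) had a 95% interval of -0.19 to 0.50 (limma adjusted p = 0.738). It ranged from 0.04 without AKRxFVB F1 array 1 to 0.28 without AKRxFVB F1 array 2.

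Ccr1 binds Ccl3, Ccl5 and related chemokines on monocytes and neutrophils. Its tested probe set (1419609_at) read 2.37, 2.33 and 2.63 in DBAxFVB F1, against 2.52 and 2.79 in AKRxFVB F1, and the groups overlapped through DBAxFVB F1 array 3. The difference was -0.21 ± 0.16 (SE), with a 95% interval of -0.58 to 0.16 and a limma adjusted p of 0.681. Leaving out AKRxFVB F1 array 2 moved it to -0.08, and leaving out AKRxFVB F1 array 1 moved it to -0.35. The second Ccr1 probe set (1419610_at) lay below the median on every array, at 1.82, 1.87 and 1.68 in DBAxFVB F1 and 2.30 and 1.89 in AKRxFVB F1. Its groups did not overlap, on the lower side (11.1% of all 45037 probe sets). Its difference of -0.30 was -0.10 without AKRxFVB F1 array 1.

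The 4 probe sets of Ccr2, the receptor for Ccl2 and Ccl7, differed in what they read. The brightest (1460067_at), which alone was tested, read 4.89, 4.60 and 4.30 in DBAxFVB F1, against 4.60 and 4.52 in AKRxFVB F1. Both AKRxFVB F1 arrays lay inside the DBAxFVB F1 range, and the difference was 0.04 ± 0.24 (SE; 95% interval -0.53 to 0.60, limma adjusted p = 0.97). It was 0.18 without DBAxFVB F1 array 3 and -0.11 without DBAxFVB F1 array 1. A second (1421188_at) read 2.29, 2.13 and 2.21 in DBAxFVB F1, against 2.79 and 3.04 in AKRxFVB F1. Its groups did not overlap, on the lower side (11.1% of all 45037 probe sets). The AKRxFVB F1 arrays lay above their array medians while the DBAxFVB F1 arrays lay below. The means were 2.21 ± 0.08 (SD, n = 3) in DBAxFVB F1 and 2.92 ± 0.18 (SD, n = 2) in AKRxFVB F1, a difference of -0.71 and 1.63-fold lower in DBAxFVB F1.

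That second Ccr2 probe set missed the filter by a small margin, with a mean of 2.49 against 2.51. Fitted without a filter, it had an unadjusted p of 0.000822 and a limma adjusted p of 0.191 over 45037 probe sets, where 0.0% passed. Its difference lay between -0.84 without AKRxFVB F1 array 1 and -0.58 without AKRxFVB F1 array 2. The remaining pair of Ccr2 probe sets lay near or below the medians. Probe set 1421186_at read 2.22, 2.38 and 2.19 in DBAxFVB F1 and 2.21 and 2.40 in AKRxFVB F1, a difference of -0.04. Probe set 1421187_at read 2.25, 2.03 and 2.03 in DBAxFVB F1 and 2.53 and 2.15 in AKRxFVB F1, a difference of -0.24.

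Cx3cr1, the receptor for the membrane-bound chemokine Cx3cl1, had a pair of dim probe sets with narrow spreads. The first (1450020_at) read 2.70, 2.68 and 2.65 in DBAxFVB F1, against 2.53 and 2.55 in AKRxFVB F1. All DBAxFVB F1 arrays lay above both AKRxFVB F1 arrays, by a mean of 0.13 ± 0.13 (SE), with a 95% interval of -0.17 to 0.43 and a limma adjusted p of 0.737. The second (1450019_at) read 2.49, 2.68 and 2.41 in DBAxFVB F1, against 2.52 and 2.60 in AKRxFVB F1. Its groups overlapped, the difference was -0.03 ± 0.14 (SE; 95% interval -0.36 to 0.31, limma adjusted p = 0.957), and it was 0.03 without DBAxFVB F1 array 3 and 0.01 without AKRxFVB F1 array 2.

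**Figure D2:**
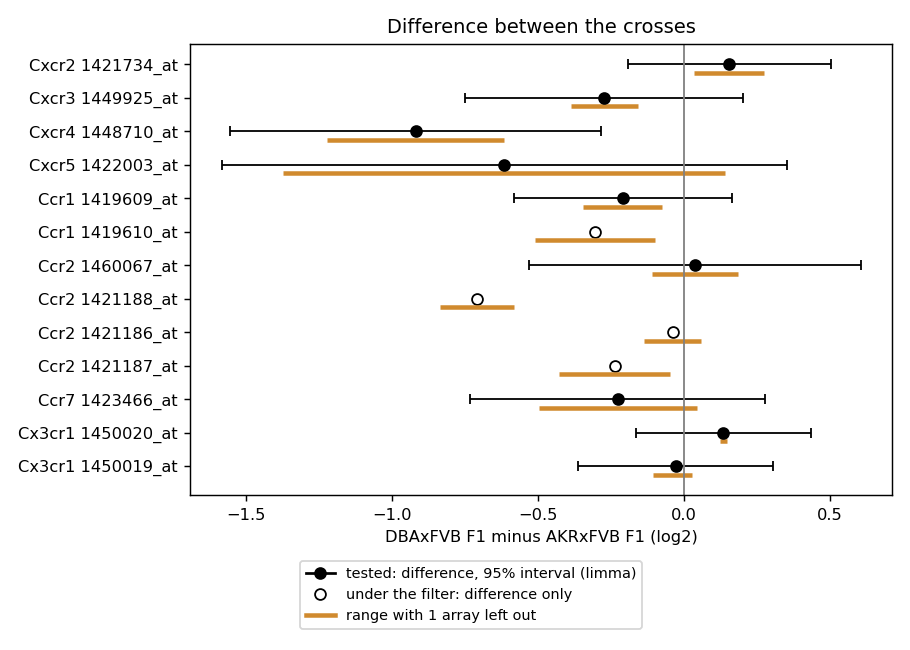
Difference between the crosses (horizontal axis, DBAxFVB F1 minus AKRxFVB F1, log2) for the 13 probe sets, with 95% limma intervals for the 9 tested (filled circles), no interval for the 4 under the filter (open circles), and the range with 1 array left out (orange lines). The Cxcr4 interval of -1.56 to -0.28 lies below 0, and those of the other 8 tested probe sets include 0.

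Each receptor was also read beside markers of the cells known to carry it. B cell markers were lower in DBAxFVB F1 for 13 of 14 tested genes (43.2% of all tested probe sets were lower). Their median difference was -0.52, and 0 passed. That median was -0.20 without AKRxFVB F1 array 1 and -0.92 without AKRxFVB F1 array 2. Relative to the mean of the 5 arrays, their median was -0.54, -0.35 and 0.10 in DBAxFVB F1, against 0.71 and -0.06 in AKRxFVB F1. AKRxFVB F1 array 1 was the highest and DBAxFVB F1 array 3 the next, for the B cell markers as for Cxcr5. Ms4a1, the B cell antigen CD20, read 5.29, 5.16 and 6.19 in DBAxFVB F1 and 8.03 and 6.97 in AKRxFVB F1. With the B cell median subtracted on each array, the Cxcr5 difference was -0.03, against -0.62 before. That relative value moved to 0.34 when AKRxFVB F1 array 1 was left out and to -0.40 when AKRxFVB F1 array 2 was.

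T cell markers were lower for 10 of 14 tested genes (median difference -0.27), with array medians of 0.18, -0.19 and -0.17 in DBAxFVB F1 and 0.09 and 0.23 in AKRxFVB F1. The T cell receptor gene Cd3e read 5.09, 4.80 and 4.84 in DBAxFVB F1 and 5.18 and 5.27 in AKRxFVB F1, and Cd3d 4.95, 4.09 and 3.61 in DBAxFVB F1 and 5.51 and 5.68 in AKRxFVB F1. The Cxcr4 difference was -0.70 with the T cell median subtracted and -0.33 with the B cell median subtracted, where it was 0.36 without AKRxFVB F1 array 2. The Ccr7 difference was -0.005 against T cell markers and 0.36 against B cell markers. The Cxcr3 difference was -0.05 against T cell markers. Against NK cell markers, of which 3 of 8 tested were lower (median difference 0.08), it was -0.36, with every DBAxFVB F1 array below both AKRxFVB F1 arrays. Without AKRxFVB F1 array 1 the NK cell median difference was -0.02, and the Cxcr3 difference against NK cell markers was -0.13. The NK receptor gene Ncr1 read 2.14 to 2.63 in DBAxFVB F1 and 2.28 to 2.46 in AKRxFVB F1, at the array medians.

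Monocyte markers were lower for 9 of 14 tested genes (median difference -0.27), neutrophil markers for 3 of 11 (0.10) and patrolling monocyte markers for 2 of 7 (0.11), with 0 passing in any of these lists. The monocyte median was -0.02 without AKRxFVB F1 array 1, and the neutrophil median -0.22 without AKRxFVB F1 array 2. Csf1r, the growth factor receptor of monocytes, read 4.66, 4.65 and 6.18 in DBAxFVB F1 and 5.86 and 5.56 in AKRxFVB F1, so DBAxFVB F1 array 3 was the highest. The neutrophil genes S100a8 and S100a9 differed by -0.40 ± 0.41 (SE) and -0.36 ± 0.42 (SE), while 8 of the 11 neutrophil genes were higher. Without AKRxFVB F1 array 1, S100a8 was at 0.10 and S100a9 at -0.06. The patrolling monocyte genes Nr4a1 and Ace differed by 0.32 ± 0.25 (SE) and 0.14 ± 0.28 (SE). The Cxcr2 difference was 0.06 against neutrophil markers. The Ccr1 difference was 0.01 against monocyte markers and -0.30 against neutrophil markers, and the brightest Ccr2 probe set differed by 0.26 against monocyte markers. Cx3cr1 differed by 0.36 against all monocyte markers and by 0.02 against those of patrolling monocytes.

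None of these 13 relative differences passed. The two-sided exact permutation test over 3 against 2 arrays cannot give a p below 0.1, and that smallest value was reached only by Cxcr3 against NK cell markers (0.975 after Benjamini-Hochberg adjustment over the 13). With 1 array left out, 9 of the 13 changed sign under at least 1 choice of array, and those of Cxcr3 against NK cell markers, Cxcr4 against T cell markers, and Ccr2 and Cx3cr1 against monocyte markers did not. The Ccr2 value is that of the brightest probe set alone. Probe set 1421188_at, with a difference of -0.71, was not set against the markers. Markers of other cells that the blood could hold were lower for 13 of 14 platelet genes, 5 of 11 erythroid genes, 3 of 5 eosinophil and basophil genes, 1 of 7 cardiac muscle genes and 4 of 7 endothelial and stromal genes. Over all tested probe sets, 43.2% were lower. For platelet genes the count was 4 of 14 without DBAxFVB F1 array 3 and 5 of 14 without AKRxFVB F1 array 2. The platelet median lay at 0.24, 0.37 and -1.23 in DBAxFVB F1 and -0.39 and 0.86 in AKRxFVB F1. The cardiac muscle gene Myl2 read 3.93, 2.83 and 2.74 in DBAxFVB F1 and 2.41 and 2.36 in AKRxFVB F1, and Myh6 2.87, 2.23 and 2.49 in DBAxFVB F1 and 2.01 and 2.15 in AKRxFVB F1. The endothelial genes Pecam1 and Cdh5 differed by -0.22 ± 0.17 (SE) and -0.20 ± 0.15 (SE), and the eosinophil genes Siglecf and Il5ra lay under the filter. AKRxFVB F1 array 2, highest for platelets and for the T cell median, was also the highest for Cxcr4 and Ccr7. DBAxFVB F1 array 3, lowest for platelets, was not the lowest for either receptor. The part of platelet RNA in the receptor values was not tested.

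**Figure D3:**
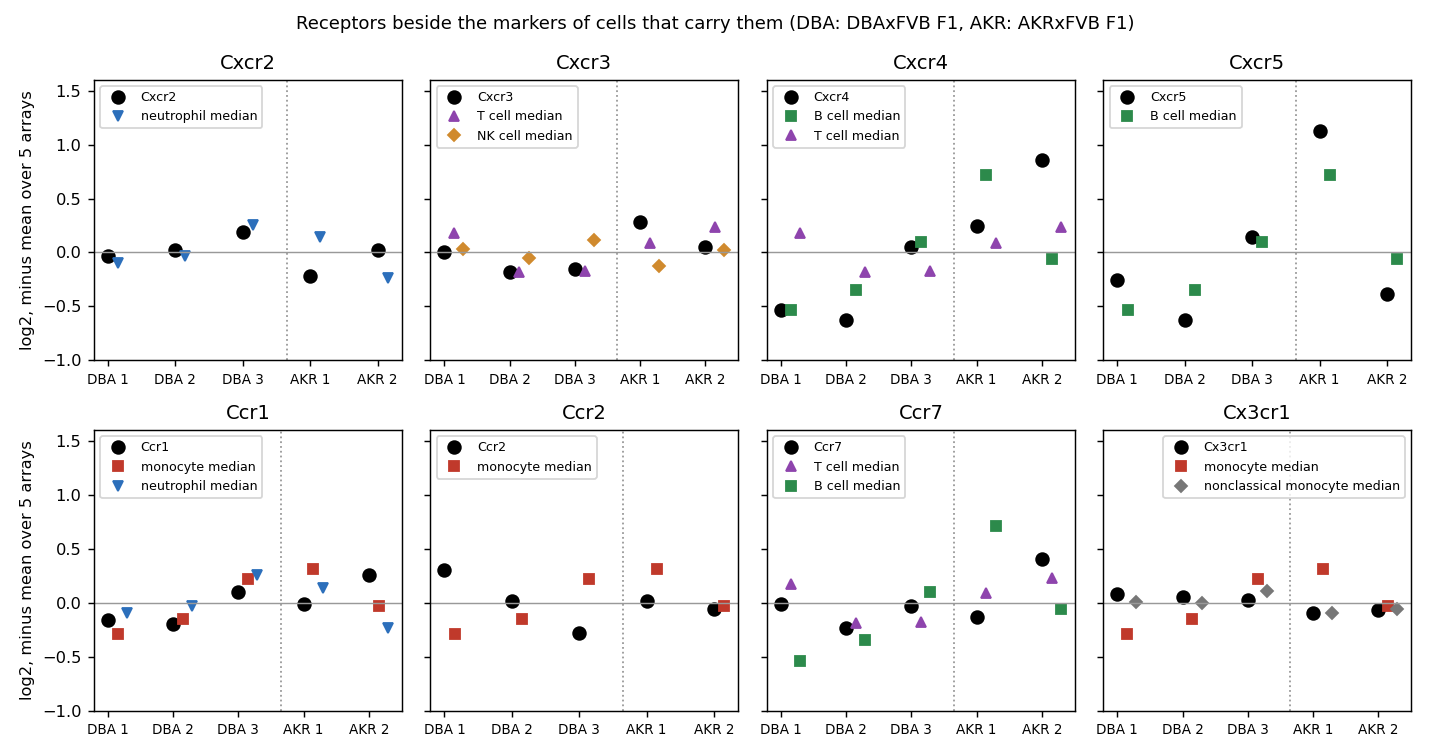
Log2 expression minus the mean over the 5 arrays (vertical axis) on each array for the brightest probe set of each receptor (black circles) and the median of the markers of cells that carry it (coloured symbols), with DBAxFVB F1 arrays left of AKRxFVB F1 arrays. Cxcr5 and the B cell median are both highest on AKRxFVB F1 array 1, at 1.13 and 0.71, and Cxcr4 is highest on AKRxFVB F1 array 2, at 0.86.

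The genes whose profile over the 5 arrays was closest to that of a receptor were named for Cxcr4 and Cxcr5, which spanned more than 1 on the log2 scale. Likeness was the root mean square difference of values centred on their mean, over 18722 candidate probe sets. Nearest to Cxcr4 was the proteasome assembly gene Pomp, at 0.10, with 3.47, 3.21 and 3.81 in DBAxFVB F1 and 4.25 and 4.85 in AKRxFVB F1, followed by the respiratory chain gene Uqcrfs1 at 0.12 and Hnrnpul2 at 0.14. Nearest to Cxcr5 was the transcription factor gene Btaf1, at 0.10, followed by the transcription factor gene Tcf4 at 0.15 and the lymphotoxin gene Ltb at 0.15. Ltb read 4.15, 3.84 and 4.30 in DBAxFVB F1 and 5.61 and 4.24 in AKRxFVB F1, so it too stood out on AKRxFVB F1 array 1. These likenesses describe 5 arrays of whole blood and carry no test.

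Among the other chemokine receptors, 3 of 9 with a probe set passed the filter and 0 passed the test, with 2 at an unadjusted p below 0.05 on the lower side (6.79% of all tested probe sets). Ccr6, which B cells and some T cells use to reach mucosal tissue, read 3.31, 3.40 and 3.64 in DBAxFVB F1, against 4.10 and 4.05 in AKRxFVB F1. Its groups did not overlap, and the difference was -0.62 ± 0.18 (SE, limma adjusted p = 0.309). Cxcr6, found on activated T cells and NK cells, read 2.77, 2.93 and 2.89 in DBAxFVB F1, against 3.55 and 3.31 in AKRxFVB F1, a difference of -0.57 ± 0.16 (SE, limma adjusted p = 0.27) with no overlap. Ccr10, the receptor of skin-homing cells, read 4.87, 5.34 and 7.11 in DBAxFVB F1 and 4.85 and 4.95 in AKRxFVB F1. Its difference of 0.88 ± 0.60 (SE) came mostly from DBAxFVB F1 array 3.

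Position along chromosome 9 brings several of these genes together. In the RefSeq annotation Ccr1, Ccr1l1, Ccr3 and Ccr2 follow each other with no other protein-coding gene between them. Xcr1 lies next to Ccr1, and Cxcr6 lies beyond Xcr1. Of this stretch Cxcr6 was at -0.57, Ccr1 at -0.21, the brightest Ccr2 probe set at 0.04 and Fyco1, a neighbour that is no receptor gene, at -0.26. The Ccr2 value turned to -0.11 without DBAxFVB F1 array 1, and the 3 Ccr2 probe sets under the filter were at -0.71, -0.04 and -0.24. Cx3cr1 and Cxcr5 lie on the same chromosome outside the group.

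The atypical receptors, most of which bind chemokines without signalling through G proteins, had 4 tested genes, of which 1 was lower and 0 passed. Ccrl2 read 4.07, 4.45 and 4.20 in DBAxFVB F1 and 3.71 and 3.96 in AKRxFVB F1, with no overlap and a difference of 0.41 ± 0.21 (SE). Ackr2 differed by 0.31 ± 0.16 and Ackr1, the Duffy antigen receptor of red cells and vessels, by -0.21 ± 0.32, which turned to 0.06 without DBAxFVB F1 array 3 and to 0.01 without AKRxFVB F1 array 2.

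The ligands of the 8 receptors had 13 tested genes, 6 lower and 7 higher, with a median difference of 0.24 and 0 passing. Without DBAxFVB F1 array 3 that median was -0.02. Cxcl2, a Cxcr2 ligand, read 2.32, 1.99 and 4.79 in DBAxFVB F1 and 2.25 and 2.24 in AKRxFVB F1, so a single array carried its difference of 0.79 ± 0.72 (SE). Cxcl13, the Cxcr5 ligand, read 4.18, 4.41 and 5.16 in DBAxFVB F1 and 4.13 and 4.10 in AKRxFVB F1, a difference of 0.47 ± 0.31 (SE) with no overlap, which was 0.18 without DBAxFVB F1 array 3. The platelet chemokine Ppbp read 10.7, 11.4 and 9.56 in DBAxFVB F1 and 10.9 and 11.2 in AKRxFVB F1. Its difference of -0.52 ± 0.55 (SE) was -0.02 without DBAxFVB F1 array 3. The lymphocyte and platelet chemokine Ccl5 differed by -0.31 ± 0.18, or -0.11 without AKRxFVB F1 array 2 and -0.52 without AKRxFVB F1 array 1.

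Genes that carry the signal of these receptors were mostly lower in DBAxFVB F1. Of 38 tested, 28 were lower, where 43.2% of all tested probe sets were. Among the 28, 7 had an unadjusted p below 0.05 (6.79% of all tested probe sets), and 0 of the 38 passed. The median difference was -0.33, and the groups did not overlap for 11 on the lower side (12.6% of all tested probe sets) and 1 on the higher side (16.4%). That median was -0.11 without DBAxFVB F1 array 3 and -0.14 without AKRxFVB F1 array 2. Rac2, the blood cell GTPase that drives leukocyte migration, read 5.21, 4.65 and 5.30 in DBAxFVB F1, against 6.55 and 5.68 in AKRxFVB F1. Its difference was -1.06 ± 0.35 (SE, limma adjusted p = 0.374), or -0.63 without AKRxFVB F1 array 1. Cdc42, a related GTPase that sets cell polarity, read 7.05, 7.34 and 6.05 in DBAxFVB F1 and 7.58 and 8.01 in AKRxFVB F1. Its difference of -0.98 ± 0.44 (SE) was -0.60 without DBAxFVB F1 array 3. On the other side, Rgs16, which shortens G protein signals, differed by 0.31 ± 0.14 and the G protein subunit gene Gng2 by 0.18 ± 0.23, the second at 0.05 without DBAxFVB F1 array 3. Level and difference were related among all tested probe sets, with a median difference of -0.56 for probe sets with a mean of 8 to 10 and 0.07 for those of 2.5 to 3 and of 3 to 4, the range that holds most receptor probe sets. Without DBAxFVB F1 array 3 the first of these medians was -0.12. With all 5 arrays, the share lower was 93.6% at a mean of 8 to 10, 37.7% at 2.5 to 3 and 39.3% at 3 to 4.

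**Figure D4:**
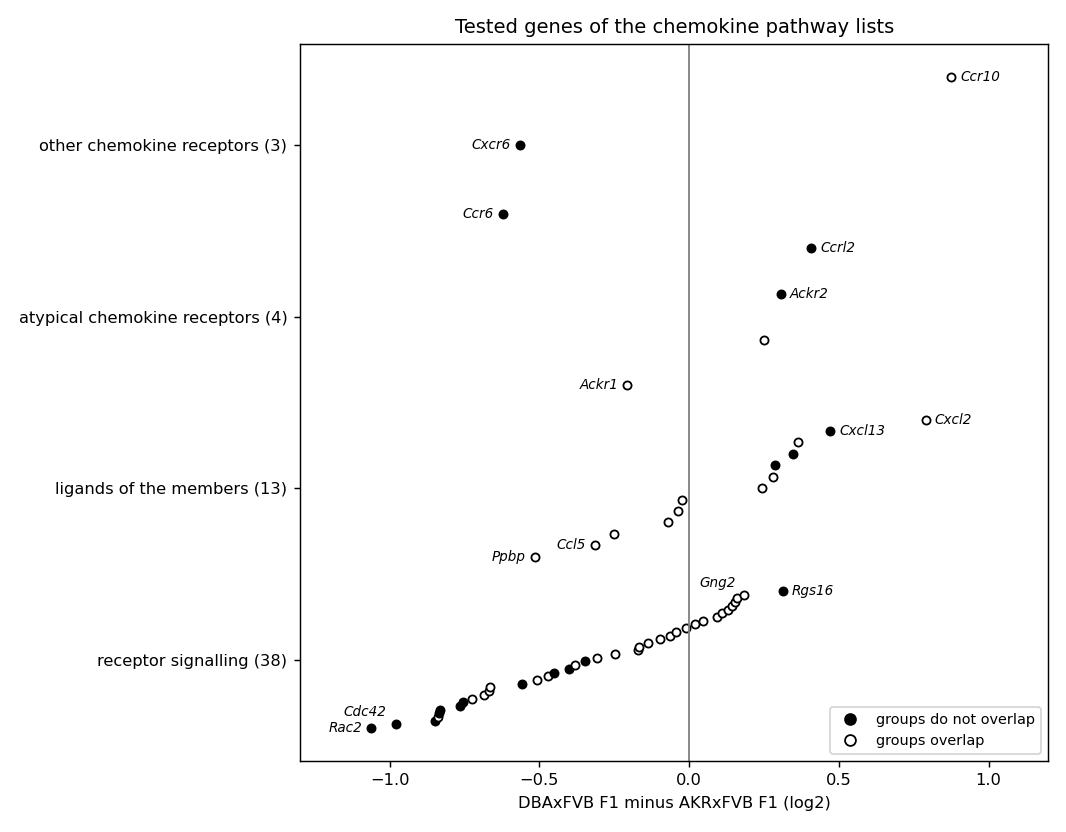
Difference between the crosses (horizontal axis, DBAxFVB F1 minus AKRxFVB F1, log2) for each tested gene of 4 lists around the 8 receptors (the members), sorted within each list, with filled circles where the groups do not overlap. Of 38 signalling genes 28 lie below 0, while 7 of 13 ligands lie above it. Of all tested probe sets, 43.2% lie below 0.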

How the data were processed

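Total RNA of whole blood was extracted with Trizol, amplified in 2 cycles and labelled with biotin, per the labels' protocols. The authors deposited 1 normalized log2 value per probe set and array. The base was inferred from the range, 1.29 to 14.8. MAS5 and RMA are named in the submitters' processing notes without versions, and which of them made the values is not given in the sources used here, so the treatment of background, which most affects dim probe sets such as those of the receptors, is unknown.

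The table held 45101 probe sets, 64 of them controls. The platform annotation gave 1 symbol to 34958 and several to 932. Of these symbols, 34741 were looked up by gene identifier in RefSeq (GRCm38.p6) and 0 changed. Non-control probe sets with a mean at or above the median, 2.51, entered a linear model (limma 3.58.1, R 4.3.3; cross as the only term, variance trend, 3 residual degrees of freedom, two-sided), and adjusted over all 22519 by Benjamini-Hochberg at 0.05. Simulated data of this size had independent normal noise with the fitted variances. In them the model recovered 290 of 500 spiked differences of 2-fold and 484 of 500 of 4-fold, with 71 false calls among 111595. That noise had no deviations shared by the probe sets of an array, so these counts do not give the power in the real data. List genes were represented by their brightest tested probe set.

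The members, lists and tests were chosen with earlier results of these data known. Named were all members, the 3 nearest profiles of members spanning 1 or more, the 2 largest differences per direction in each pathway list, and the first 2 markers of each cell type list, of which some, Klrb1c and Ly6c2 among them, are not analysed here. Promoters were found for 6 of the 8 receptors. Alternatives were other normalizations, filters and variance models, array weights, a replicate block and each array left out. Python 3.11.15, pandas 2.3.3 and matplotlib 3.10.9 were also used.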

Additional observations from a re-analysis of the deposited data

How the results depend on the processing

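No probe set was called under any of the 14 alternatives run, of the receptors or of all, and 2337 had an unadjusted p below 0.05. That count of 2337 was 10.4% of the 22519 tested. It was 3880 of 45037 with no filter and 1299 with a filter at the 75th percentile. Among receptors it was 1 of the 9 tested, and 2 of 13 with no filter. The Cxcr4 and Cxcr3 differences kept their direction in every alternative run. So did the smaller differences of Cxcr2, Ccr1 (1419609_at) and Cx3cr1 (1450020_at) in every alternative that tested them. Sign changes with other processing were small differences. Quantile normalization gave -0.018 for Cxcr2 against neutrophil markers, -0.18 for Ccr1 against monocyte markers and -0.088 for Cx3cr1 against patrolling monocyte markers. Ccr1 against monocyte markers was -0.13 with cyclic loess normalization and -0.10 with all probe sets of the list genes. Median centring gave -0.0062 for Ccr2 (1460067_at), and array weights gave 0.011 for Cx3cr1 (1450019_at). The cause was not tested.

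With each array left out in turn, the receptor median lay between -0.25 and -0.0021. The range was -1.37 to 0.14 for Cxcr5, -0.11 to 0.18 for Ccr2 (1460067_at), -0.50 to 0.043 for Ccr7 and -0.11 to 0.029 for Cx3cr1 (1450019_at). Relative to markers it was -0.12 to 0.47 for Cxcr2 (neutrophil), -0.25 to 0.23 for Cxcr3 (T cell), -1.03 to 0.36 for Cxcr4 (B cell), -0.40 to 0.34 for Cxcr5 (B cell), -0.36 to 0.33 for Ccr1 (monocyte) and -0.50 to 0.12 for Ccr1 (neutrophil). It was -0.10 to 0.18 for Ccr7 (T cell), -0.30 to 1.02 for Ccr7 (B cell) and -0.063 to 0.034 for Cx3cr1 (patrolling monocyte). Medians and genes of the other lists with arrays left out, given beside their values, were added after seeing the data. Fits without an array of AKRxFVB F1 assume that the lone remaining array varies like the other cross.

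Deviations of same-numbered arrays from their cross means had correlations of -0.26 (arrays 1) and 0.17 (arrays 2) over 22519 probe sets. With only 2 AKRxFVB F1 arrays, the deviations of 1 mirror those of the other. These correlations therefore cannot decide whether the numbers pair the arrays. With the replicate number as a block, which leaves 1 residual degree of freedom, 0 probe sets were called. An unadjusted p below 0.05 was seen for 2438 of the 22519 probe sets and for 2 of the 9 of receptors. Cxcr4 was then at -1.13, Cxcr5 at -0.81 and Cx3cr1 (1450019_at) at 0.029. Only DBAxFVB F1 has an array 3, so the block takes that array out of the difference. These values therefore repeat those obtained without DBAxFVB F1 array 3 and say nothing further on pairing.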

Other observations

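Several chemokine genes outside the 8 receptors were highest on DBAxFVB F1 array 3, as seen after their values were known. The Ccr1 ligand Ccl6 read 4.54, 5.20 and 6.69 in DBAxFVB F1 and 6.43 and 5.02 in AKRxFVB F1. The related ligand Ccl9 read 2.52, 2.84 and 3.92 in DBAxFVB F1 and 3.19 and 2.52 in AKRxFVB F1. Both were next highest on AKRxFVB F1 array 1, the order seen for the monocyte gene Csf1r. The tested Ccr1 probe set was instead highest on AKRxFVB F1 array 2.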
